A study of Mus musculus with 17 samples.

Results

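The collagen genes other than those of type IV were described in the thoracic spinal cord of mice with targeted experimental autoimmune encephalomyelitis (EAE) given an antibody against repulsive guidance molecule a (RGMa), of mice with the same disease given an isotype control antibody, and of naïve mice. A gene was a member when its symbol on the array was Col, a number, a and a number, and it was not one of Col4a1 to Col4a6. This left 36 of the 18194 genes measured, and each gene was read from the probe set with the highest mean log2 signal over the 17 arrays. The rule itself uses no measured difference, though it was set with earlier results of these data known. By class, 11 were fibrillar collagens, 9 were fibril-associated, 5 form beaded filaments, 4 span the cell membrane, 3 form short-chain networks, 2 were multiplexins, and Col7a1 (anchoring fibrils) and Col26a1 stood alone. In 10 of the 36 the mean log2 signal was below 7 in all 3 groups, and these are called dim.

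All mice were female, C57BL/6 by the labels and C57BL/6J by the study's methods, and the labels give an age of 8 weeks without saying at which step. The 6 anti-RGMa and 5 isotype control mice were immunized with a myelin oligodendrocyte glycoprotein peptide, and 3 weeks later had a laminectomy at thoracic level 8 and an injection of TNF-α and IFN-γ into the cord, with pertussis toxin. They received 10 mg/kg of a humanized anti-RGMa antibody or of the control antibody palivizumab intravenously 2 times a week from day 9 after the cytokines, and cord 4.5 mm wide around the injection site was taken at day 14. The 6 naïve mice had no treatment, so laminectomy, injection and disease cannot be told apart in any comparison with them. One array was run per mouse, and the study asked how the antibody acts on the blood-spinal cord barrier.

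Collagens are secreted or membrane-bound proteins of 3 chains wound into a triple helix. Fibrillar collagens such as types I, III and V make the tensile fibres of connective tissue and of scars, and the fibril-associated collagens sit on their surface. Type VI forms beaded filaments around cells, type VIII forms networks beneath endothelium, and types XV and XVIII lie in or next to basement membranes. In the healthy cord fibrillar collagens are largely confined to the meninges and the walls of larger vessels, and they are laid down in the scar after injury or inflammation.

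Some arrays stood apart. Median signals over all probe sets were 136 to 157 in the anti-RGMa arrays, 137 to 165 in the isotype control arrays and 132 to 145 in the naïve arrays. Over 12 fibroblast markers the mean log2 signal was 8.25 to 9.56 in the anti-RGMa arrays, 9.83, 9.54, 10.76, 11.32 and 9.09 in isotype control replicates 1 to 5 and 8.45 to 9.27 in the naïve arrays. Isotype control replicates 3 and 4 were the highest of the 17 and anti-RGMa replicate 2 the lowest. These markers were Pdgfra, Dcn, Lum, Fmod, Thy1, Fbln1, Fap, Pi16, Dpt, Mfap5, Prrx1 and Twist1. Thy1 went against the other 11. It fell in isotype control over naïve cord (-0.62, adjusted p = 0.000963 in limma), where they were above 0. Between the antibody groups it was at 0.34, not called, where they were below 0. Over 14 skeletal muscle markers isotype control replicates 3, 4 and 5 had 9.16, 13.08 and 9.32, whereas the other 14 arrays had 4.52 to 8.34. Over 7 meningeal markers anti-RGMa replicate 2 had 6.80, and the other 5 anti-RGMa arrays had 8.56 to 9.55. Over 7 sensory neuron markers anti-RGMa replicates 1 and 6 had 9.64 and 8.11, and the other 15 arrays had 6.09 to 7.78. The labelled tissue is spinal cord, and markers of neurons (means of 10.8 to 12.3), oligodendrocytes (13.1 to 13.6) and astrocytes (12.3 to 12.9) were high in every array. Because this is bulk tissue, fewer cells of a type and less RNA per cell cannot be told apart.

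Most collagens were higher in targeted EAE under the isotype control antibody than in naïve cord. Of the 36 genes, 22 rose, 3 fell and 11 were not called at an adjusted p under 0.05 (limma, Benjamini-Hochberg over all genes). Over all genes 24.6% rose and 27.2% fell by the same rule, or 4481 and 4945 genes, where centring arrays on their medians gave 3502 and 5974 and 20 and 4 collagens. The median log2 fold change was 1.08 for the collagens and -0.04 for all genes. In 18 members every isotype control array lay above every naïve array, and in 3 every one lay below, where 18.3% and 20.4% of all genes did so. Without isotype control replicates 3 and 4, 20 members rose and 4 fell. With the mean of the fibroblast markers as a covariate 12 rose and 3 fell. The 24.6% and 27.2% of all genes are from the fit with all arrays and no covariate. The shares of all genes in these other settings are not given here, so their counts have no background beside them.

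**Figure D1:**
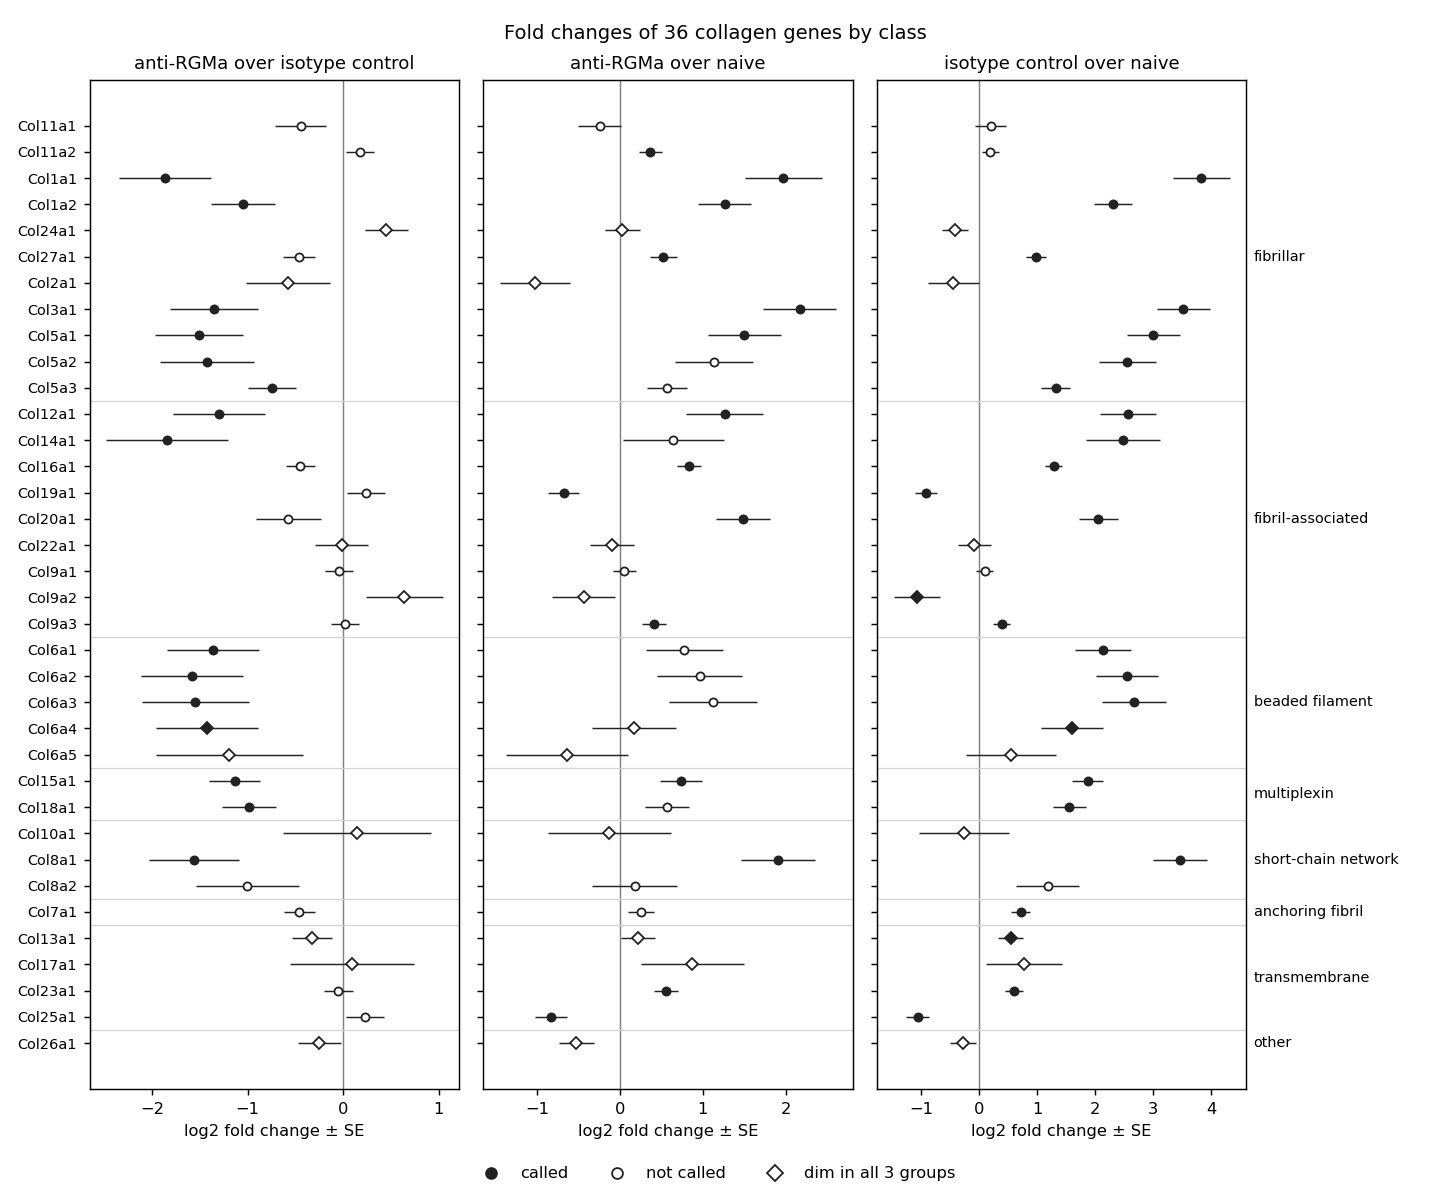
Log2 fold change with its standard error (horizontal axes) of the 36 collagen genes (rows, grouped by class) for anti-RGMa over isotype control, anti-RGMa over naïve and isotype control over naïve. Filled symbols passed the call of that comparison and diamonds are dim genes. The calls between the antibody groups all lie left of 0, in 6 fibrillar, 2 fibril-associated, 4 beaded filament, 2 multiplexin and 1 short-chain network gene.

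Between the antibody groups the collagens called were all lower under anti-RGMa. The threshold was that of the study's legend, a fold change above 1.5 together with p under 0.05 before adjustment. By it 15 of 36 collagens were lower in anti-RGMa cord and 0 were higher, where 2.72% of all genes were lower and 1.22% higher. The log2 fold change was below 0 in 28 of 36, with a median of -0.58 against 0.01 over all genes. By class the median was -1.42 in the beaded filament genes, -1.06 in the multiplexins, -0.75 in the fibrillar, -0.05 in the fibril-associated and 0.02 in the transmembrane genes. These medians include any dim genes of the class, and the -1.42 is the value of the dim Col6a4. Col6a5 of the same class is dim as well. Of the 36, 18 had an unadjusted p under 0.05 and 0 passed an adjusted p of 0.05 in limma (lowest 0.185), which 1 of all 18194 genes passed. All 15 were among the 22 that had risen in isotype control over naïve cord. That comparison shares its isotype control arrays with this one, so arrays with high collagen signal enter both.

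Most of these calls were lost without isotype control replicates 3 and 4. In each of the 14 called members that were not dim, replicate 4 was the highest and replicate 3 the second highest of the 5 isotype control arrays. With these 2 arrays left out, a choice made after seeing the data, 4 members were called lower (Col1a1, Col15a1, Col6a4 and Col20a1) and 1 dim member higher (Col24a1). All 15 first called kept a log2 fold change below 0, with a median of -0.53, and 3 of them kept the call. The share of all genes called lower was then 2.4%. For the 14, taking the 2 highest arrays from the higher group must shrink the difference, and it leaves fewer mice. The lost calls therefore cannot show whether these 2 arrays are unusual. With replicate 4 alone left out 13 of the 15 kept the call, and with replicate 3 alone 14 did. With the fibroblast markers as a covariate 2 of the 15 kept the call, Col1a1 and Col15a1, while Col9a2 and Col24a1 were called higher, and 1.04% of all genes were called lower. Of the markers themselves, 7 of 12 fibroblast, 3 of 10 endothelial, 3 of 10 macrophage, 2 of 7 meningeal, 3 of 14 muscle, 1 of 8 pericyte (Pdgfrb) and 1 of 6 Schwann cell genes were lower under anti-RGMa with all arrays, and 3 of 7 sensory neuron and 1 of 10 neuron genes were higher. Over all genes 2.72% were lower and 1.22% higher with all arrays. With isotype control replicates 3 and 4 left out the counts lower were 0 for fibroblast, 2 for endothelial and 4 for macrophage markers, and 3 sensory neuron markers were again higher. A fit with muscle markers as a covariate kept 11 of the 15, and a fit with cartilage and bone markers kept all 15. The fibroblast marker mean itself differed between the antibody groups, at 9.16 under anti-RGMa and 10.11 under isotype control. A fit with it therefore cannot separate these markers from the antibody. The part of any marker list in the collagen difference was not tested.

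**Figure D2:**
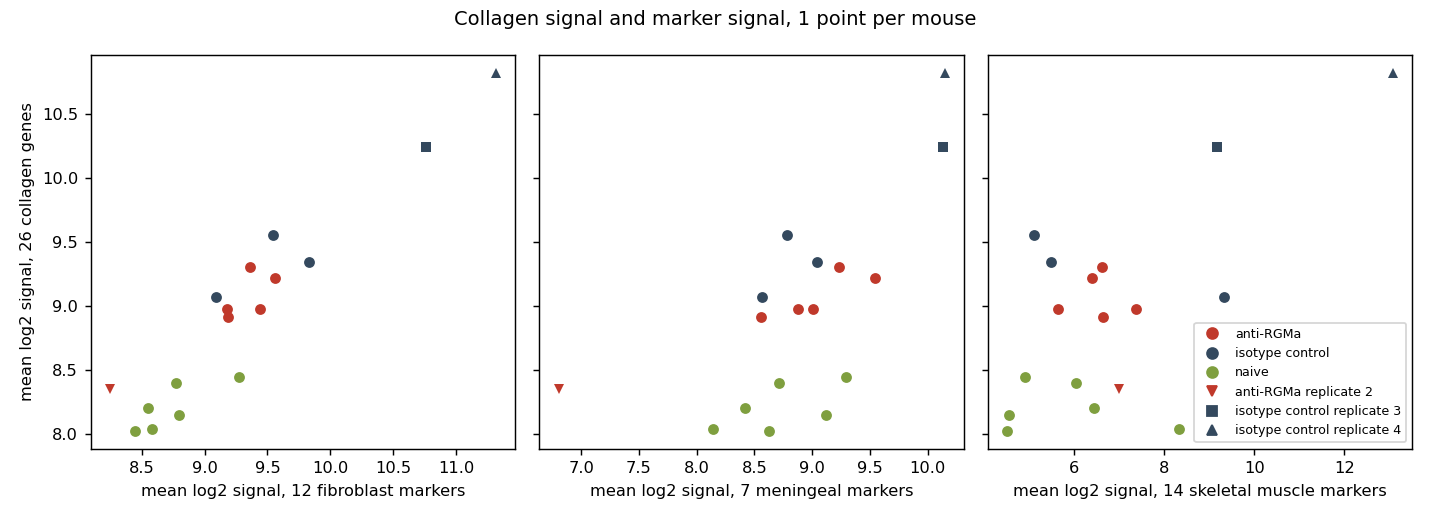
Mean log2 signal of the 26 collagen genes that were not dim (vertical axis) against the mean log2 signal of 12 fibroblast, 7 meningeal and 14 skeletal muscle markers (horizontal axes), 1 point per mouse. On the vertical axis the anti-RGMa arrays lie at 8.35 to 9.31, isotype control replicates 4 and 3 at 10.83 and 10.24, the other isotype control arrays at 9.07 to 9.55 and the naïve arrays at 8.02 to 8.45.

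Among the fibrillar collagens, Col1a1 and Col1a2 encode the chains of type I collagen, the main protein of scars. Col1a1 had a log2 signal of 8.46 to 10.46 in the 6 anti-RGMa arrays (median 9.68), of 10.50, 11.67, 11.87, 12.99 and 10.29 in isotype control replicates 1 to 5, and of 7.07 to 8.98 in the naïve arrays (median 7.39). Only the highest anti-RGMa array reached the lowest isotype control array, and both EAE groups were mostly above naïve. Col1a1 was 3.64 times lower in anti-RGMa than in isotype control cord (log2 fold change -1.87, SE 0.48, adjusted p = 0.202). Over naïve it was higher by 1.97 (adjusted p = 0.00292) under anti-RGMa and by 3.84 (adjusted p = 1.02e-05) under isotype control. Between the antibody groups it kept its call in every alternative tried, among them without isotype control replicates 3 and 4, at -1.22 (adjusted p = 0.234), and with the fibroblast covariate, at -0.74 (adjusted p = 0.578).

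Col1a2 had 11.50 to 12.77 (median 12.68) in anti-RGMa arrays, 13.23, 13.07, 14.13, 14.53 and 12.61 in isotype control arrays and 10.73 to 11.92 (median 11.14) in naïve arrays. Isotype control replicate 5 lay within the anti-RGMa range and the other 4 lay above it. Its log2 fold change was -1.05 (SE 0.33, adjusted p = 0.223) between the antibody groups, 1.26 for anti-RGMa over naïve and 2.31 for isotype control over naïve. Without isotype control replicates 3 and 4 the antibody difference was -0.50 and not called.

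Col3a1 encodes type III collagen, found with type I in vessel walls and early scars. Its log2 signal was 10.58 to 12.78 (median 12.52) under anti-RGMa, 13.01, 13.43, 14.32, 14.61 and 12.32 under isotype control and 9.00 to 10.75 (median 10.12) in naïve cord. The lowest anti-RGMa array, replicate 2, lay among the naïve values, and isotype control replicate 5 lay among the anti-RGMa values. The difference between the antibody groups was -1.36 (SE 0.46, adjusted p = 0.225), and the rises over naïve were 2.17 under anti-RGMa and 3.52 under isotype control (adjusted p = 0.00106 and 1.42e-05).

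Col5a1, Col5a2 and Col5a3 encode type V chains, which start fibrils and set their width. Col5a1 had 7.75 to 9.57 (median 8.89) under anti-RGMa, 9.24, 10.06, 10.96, 12.11 and 9.09 under isotype control and 6.88 to 7.77 (median 7.33) in naïve cord. Col5a2 had 8.84 to 10.17 (median 9.93) under anti-RGMa, 10.40, 10.32, 12.35, 13.19 and 9.81 under isotype control and 8.28 to 8.98 (median 8.65) in naïve cord. For both genes the anti-RGMa arrays overlapped the lower isotype control arrays, and replicates 3 and 4 stood well above. Their antibody differences were -1.51 for Col5a1 (SE 0.46, adjusted p = 0.223) and -1.43 for Col5a2 (SE 0.49, adjusted p = 0.227). Col5a1 was 2.83 times its naïve level under anti-RGMa and 8.03 times under isotype control (adjusted p = 0.012 and 5.94e-05), and Col5a2 rose over naïve by 2.56 on the log2 scale under isotype control and was at 1.13 under anti-RGMa (adjusted p = 0.066).

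Col5a3 had 8.52 to 9.12 (median 8.77) under anti-RGMa, 9.19, 9.31, 9.50, 10.78 and 8.83 under isotype control and 7.87 to 8.38 (median 8.27) in naïve cord. All EAE arrays lay above naïve, and replicate 4 stood alone at the top. The antibody difference of -0.75 (SE 0.25, adjusted p = 0.225) missed the call at -0.43 without isotype control replicate 4. Over naïve it rose by 1.32 under isotype control (adjusted p = 0.000384), and under anti-RGMa it was at 0.57 (adjusted p = 0.0688). A second, dim probe set of Col5a3 gave -0.80 for isotype control over naïve and was not called.

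The other fibrillar genes were not called between the antibody groups. Col27a1 rose over naïve in both EAE groups, by 0.52 under anti-RGMa and 0.98 under isotype control (adjusted p = 0.0159 and 0.000148). Its antibody difference of -0.46 (adjusted p = 0.241) was below the fold of 1.5. Col11a1 and Col11a2, chains of type XI collagen best known from cartilage, had antibody differences of -0.45 and 0.17. Col11a2 was at 0.36 over naïve under anti-RGMa (adjusted p = 0.047) and at 0.19 under isotype control (adjusted p = 0.294). Col2a1, the main cartilage collagen, and Col24a1 were dim and not called in any comparison with all arrays.

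**Figure D3:**
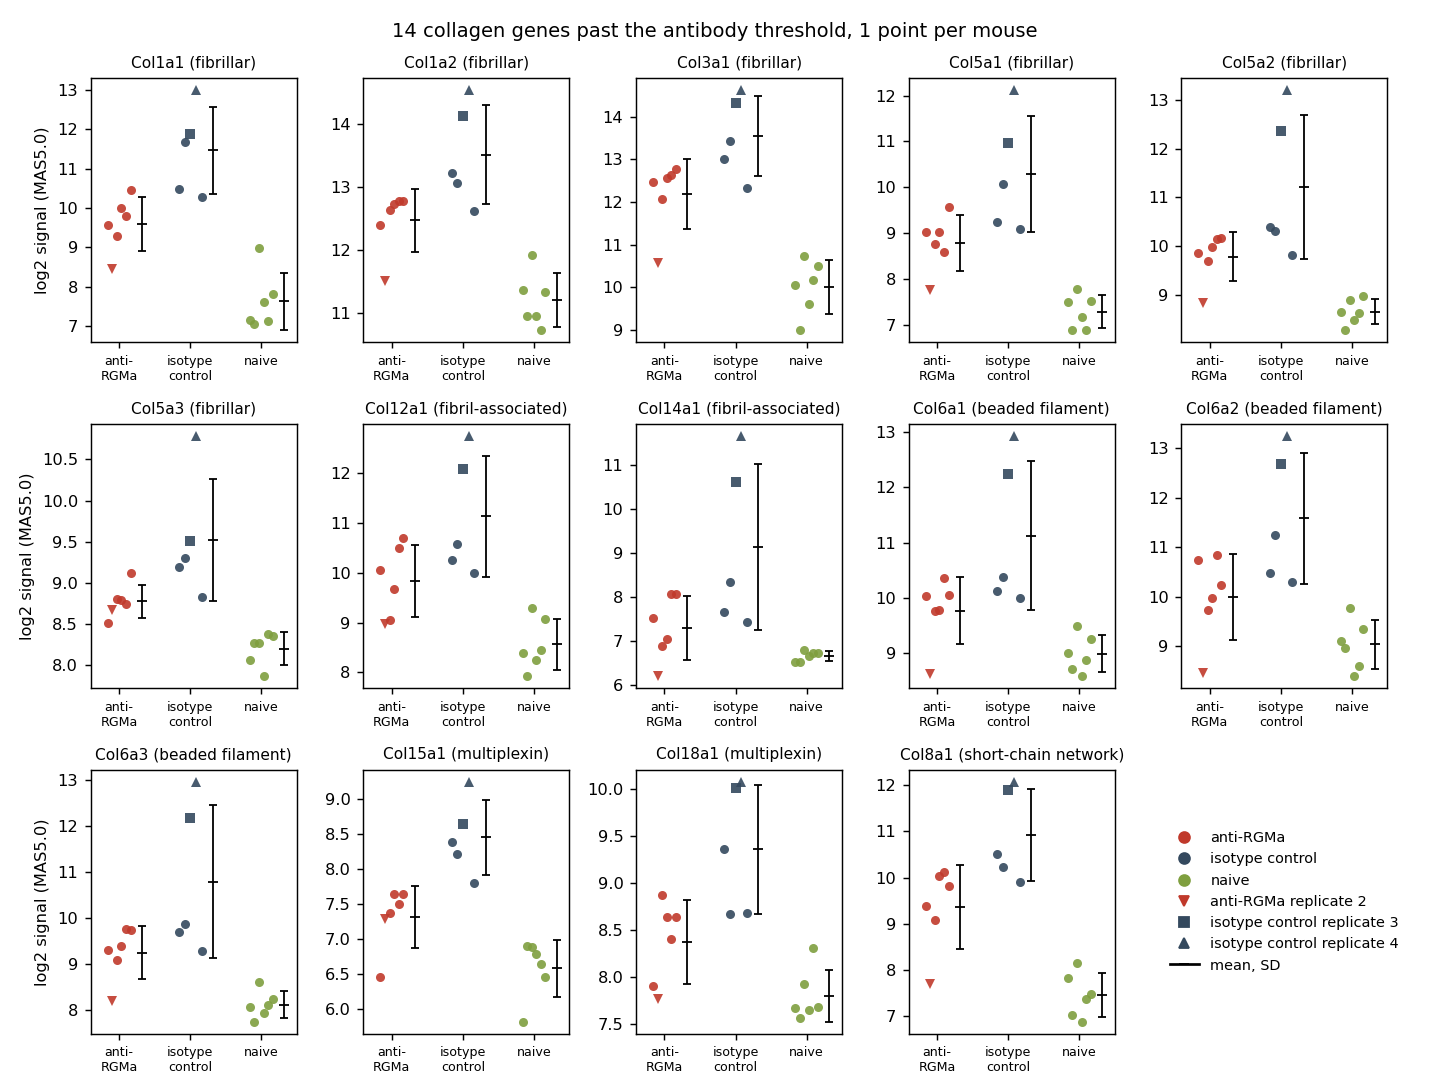
Log2 MAS5.0 signal (vertical axes) of the 14 collagen genes that passed the antibody threshold and were not dim, in anti-RGMa, isotype control and naïve mice, 1 point per mouse with mean and SD beside. Isotype control replicates 4 (triangle) and 3 (square) are the 2 highest isotype control arrays in every panel, and only for Col15a1 do all anti-RGMa points lie below all isotype control points.

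The fibril-associated collagens did not move as 1 group, with 2 of 9 called lower between the antibodies. Col12a1 and Col14a1, which encode types XII and XIV, coat type I fibrils and link them to their surroundings. Col12a1 had 8.98 to 10.70 (median 9.86) under anti-RGMa, 10.25, 10.58, 12.08, 12.73 and 10.00 under isotype control and 7.93 to 9.29 (median 8.42) in naïve cord. Apart from replicates 3 and 4 the isotype control arrays lay inside the anti-RGMa range, and the difference of -1.30 (SE 0.48, adjusted p = 0.247) lost its call at -1.07 without replicate 3 and at -0.90 without replicate 4. Col14a1 had 6.20 to 8.08 (median 7.29) under anti-RGMa, 7.65, 8.35, 10.63, 11.66 and 7.42 under isotype control and 6.52 to 6.80 (median 6.69) in naïve cord. After Col1a1 it had the largest difference of the 36, -1.84 (SE 0.64, adjusted p = 0.228), and the widest isotype control spread, with an SD of 1.89. Without replicates 3 and 4 the difference was -0.51 and not called. Over naïve, Col12a1 was higher by 1.26 under anti-RGMa and by 2.56 under isotype control (adjusted p = 0.0373 and 0.00033), and Col14a1 rose by 2.48 under isotype control (adjusted p = 0.0038) and was at 0.64 under anti-RGMa (adjusted p = 0.436).

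Col16a1, a type that connects fibrils with cells and basement membranes, had little spread. Its signal was 9.90 to 10.36 (median 10.05) under anti-RGMa, 10.55, 10.63, 10.19, 11.06 and 10.20 under isotype control and 9.04 to 9.64 (median 9.19) in naïve cord. All EAE arrays lay above all naïve arrays. Over naïve it was higher by 0.83 under anti-RGMa and by 1.28 under isotype control, with the lowest adjusted p of the 36 for both (0.000306 and 4.87e-06). Between the antibody groups it differed by -0.45 (adjusted p = 0.225), below the fold of 1.5.

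Col20a1 did not follow the arrays that were high for type I and VI. It had 7.15 to 9.27 (median 7.80) under anti-RGMa, 9.22, 8.70, 7.50, 8.56 and 8.53 under isotype control and 6.07 to 6.73 (median 6.51) in naïve cord. Isotype control replicate 3 was its lowest array of that group and replicate 1 its highest. It rose over naïve by 1.48 and 2.06 (adjusted p = 0.00188 under anti-RGMa and 0.000113 under isotype control) and was not called between the antibody groups (-0.58, adjusted p = 0.408). Without isotype control replicates 3 and 4 it was called, at -0.89 (adjusted p = 0.244).

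Of the other fibril-associated genes, Col19a1 fell in EAE. Its log2 signal was 7.20 to 7.93 under anti-RGMa, 6.77, 7.51, 7.53, 8.00 and 7.09 under isotype control and 8.06 to 8.75 in naïve cord, so that no EAE array reached a naïve one. The changes were -0.68 under anti-RGMa and -0.92 under isotype control (adjusted p = 0.0085 and 0.000947), with no call between the antibodies (0.24). Col9a1, Col9a2 and Col9a3 encode type IX, a partner of cartilage fibrils. Col9a3 rose by 0.41 under anti-RGMa and 0.39 under isotype control over naïve, Col9a2, which is dim, fell by 1.08 under isotype control (adjusted p = 0.0335), and Col9a1 and the dim Col22a1 were not called anywhere.

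Type VI collagen surrounds cells in muscle, nerve and vessel walls, and Col6a1, Col6a2 and Col6a3 encode its 3 main chains. Col6a1 had 8.61 to 10.35 (median 9.90) under anti-RGMa, 10.11, 10.37, 12.23, 12.93 and 9.99 under isotype control and 8.58 to 9.50 (median 8.93) in naïve cord. Col6a2 had 8.47 to 10.85 (median 10.11) under anti-RGMa, 10.48, 11.24, 12.69, 13.24 and 10.29 under isotype control and 8.41 to 9.78 (median 9.05) in naïve cord. Col6a3 had 8.19 to 9.75 (median 9.34) under anti-RGMa, 9.68, 9.87, 12.16, 12.95 and 9.27 under isotype control and 7.74 to 8.61 (median 8.08) in naïve cord. In all 3 genes isotype control replicates 3 and 4 stood above every other array, and replicates 1 and 5 lay within the anti-RGMa range. The antibody differences were -1.37, -1.59 and -1.55 for Col6a1, Col6a2 and Col6a3, and without replicates 3 and 4 they were -0.40, -0.67 and -0.37, none of them called. Over naïve the 3 rose under isotype control, by 2.14, 2.55 and 2.67, while anti-RGMa gave 0.78, 0.96 and 1.13 with adjusted p of 0.199, 0.148 and 0.104. The fit shares 1 estimate of spread per gene over the 3 groups, so the isotype control arrays enter these p-values too. For Col6a3 the SD was 1.65 under isotype control, 0.58 under anti-RGMa and 0.30 in naïve cord.

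The remaining type VI genes were dim. Col6a4, which encodes a chain related to that of Col6a3, had 2.99 to 5.35 under anti-RGMa, 5.49, 5.00, 5.16, 5.58 and 5.98 under isotype control and 2.89 to 5.78 in naïve cord. Here replicates 3 and 4 did not stand apart. It was called lower between the antibody groups (-1.42, adjusted p = 0.251), but a second probe set, also dim, gave 0.29. Col6a5 had 0.38 to 5.45 over the 11 EAE arrays and was not called in any comparison.

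The multiplexins Col15a1 and Col18a1 encode basement membrane collagens of vessels, and Col18a1 is the source of the fragment endostatin. Col15a1 had 6.47 to 7.64 (median 7.44) in anti-RGMa arrays, 8.39, 8.21, 8.64, 9.24 and 7.80 in isotype control arrays and 5.82 to 6.90 (median 6.72) in naïve arrays. It was the only one of 36 members in which every anti-RGMa array lay below every isotype control array, and in none did every one lie above, where 0.566% and 0.242% of all genes did so. Its difference of -1.14 (SE 0.27, adjusted p = 0.185) had the lowest p of the collagens. It kept the call in every alternative tried, with -0.81 (adjusted p = 0.221) without isotype control replicates 3 and 4 and -0.73 (adjusted p = 0.578) with the fibroblast covariate. Col15a1 has only 1 probe set, so the alternatives that use other probe sets left its signal unchanged. Over naïve it was higher by 0.74 under anti-RGMa (adjusted p = 0.0295) and by 1.87 under isotype control (adjusted p = 3.23e-05). Of 10 endothelial markers 8 rose in isotype control over naïve, where 24.6% of all genes did. Between the antibodies 3 were lower, where 2.72% of all genes were. These were Cdh5 (-0.71), Tie1 (-0.72) and Ecscr (-0.59), the last with no overlap of the groups. The other 7 were not called there, with Slco1a4 at 0.34 and Flt1 at 0.19, and Slco1a4 fell under isotype control over naïve (-0.61). The mean log2 signal of the 10 markers was 8.69 to 9.07 under anti-RGMa, 9.35, 9.05, 8.95, 9.41 and 9.17 under isotype control and 8.22 to 8.57 in naïve cord. The part of these markers in the Col15a1 difference was not tested.

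Col18a1 had 7.77 to 8.87 (median 8.53) in anti-RGMa arrays, 9.37, 8.68, 10.01, 10.08 and 8.68 in isotype control arrays and 7.57 to 8.32 (median 7.68) in naïve arrays. Isotype control replicates 2 and 5 lay within the anti-RGMa range. The antibody difference was -0.99 (SE 0.28, adjusted p = 0.209), a second probe set gave -1.20, and without isotype control replicates 3 and 4 the first was -0.53 and not called. It rose over naïve under isotype control (1.56, adjusted p = 0.000226), and under anti-RGMa it was at 0.57 with an adjusted p of 0.102.

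Col8a1, a network collagen of vessel walls, had 7.69 to 10.12 (median 9.60) under anti-RGMa, 10.50, 10.22, 11.89, 12.07 and 9.90 under isotype control and 6.88 to 8.14 (median 7.42) in naïve cord. One isotype control array, replicate 5, lay within the anti-RGMa range. The antibody difference was -1.56 (SE 0.47, adjusted p = 0.223), and the rises over naïve were 1.90 under anti-RGMa and 3.46 under isotype control (adjusted p = 0.00302 and 2.03e-05). Without isotype control replicates 3 and 4 the antibody difference was -0.85 and not called. Its partner Col8a2 was not called in any comparison (adjusted p = 0.369 between the antibodies), and Col10a1, a marker of maturing cartilage, was dim and not called.

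Transmembrane collagens showed no call between the antibody groups. Col25a1, a neuronal gene needed for the innervation of muscle, had 8.05 to 9.04 (median 8.77) under anti-RGMa, 7.74, 8.63, 8.87, 8.57 and 8.27 under isotype control and 9.28 to 9.56 (median 9.53) in naïve cord. Every EAE array was below every naïve array, by -0.84 under anti-RGMa and -1.06 under isotype control (adjusted p = 0.0024 and 0.000328). Beside it, the mean of 10 neuron markers was 10.99 to 11.82 under anti-RGMa, 10.82 to 11.52 under isotype control and 12.16 to 12.33 in naïve cord, and its part in the fall was not tested. Col23a1 rose by 0.55 and 0.60 in the 2 EAE groups over naïve (adjusted p = 0.00644 under anti-RGMa and 0.00355 under isotype control), the dim Col13a1 by 0.54 under isotype control, and the dim Col17a1, an anchor of skin cells, was not called. Other probe sets of Col23a1 gave 0.18 and 0.64 in isotype control over naïve (adjusted p = 0.241 and 0.00516, over all probe sets). The antibody differences of Col23a1 and Col13a1 were -0.05 and -0.33 (adjusted p = 0.898 and 0.451). Col7a1, the anchoring fibril collagen, rose by 0.71 under isotype control (adjusted p = 0.00165) and had an antibody difference of -0.46 (adjusted p = 0.24) below the fold of 1.5. The dim Col26a1 was not called.

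Anti-RGMa cord also stood above naïve cord for many of these genes. Of the 36, 13 rose and 2 fell (Col19a1 and Col25a1), where 20.3% of all genes rose and 21.6% fell, and the median was 0.54 against -0.03 over all genes. Of the 22 that rose under isotype control, 12 also rose under anti-RGMa, and 1 more, Col11a2, passed the test under anti-RGMa without passing it under isotype control. The 2 comparisons share the naïve arrays. Every anti-RGMa array lay above every naïve array for Col16a1, Col20a1 and Col5a3 and below for Col19a1 and Col25a1, where 13.9% of all genes lay wholly above and 13.8% wholly below. Col5a2, Col5a3, Col6a1, Col6a2, Col6a3, Col14a1 and Col18a1 rose under isotype control and were not called here. In each of them the SD was larger among the isotype control arrays than in either other group. Without isotype control replicates 3 and 4, which enter this comparison only through the shared estimate of spread, 18 rose and 2 fell. The share of all genes in that setting is not given here. When arrays were centred on their medians instead, 11 rose and 4 fell, and of all genes 2882 rose and 4842 fell in place of 3696 and 3925.

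**Figure D4:**
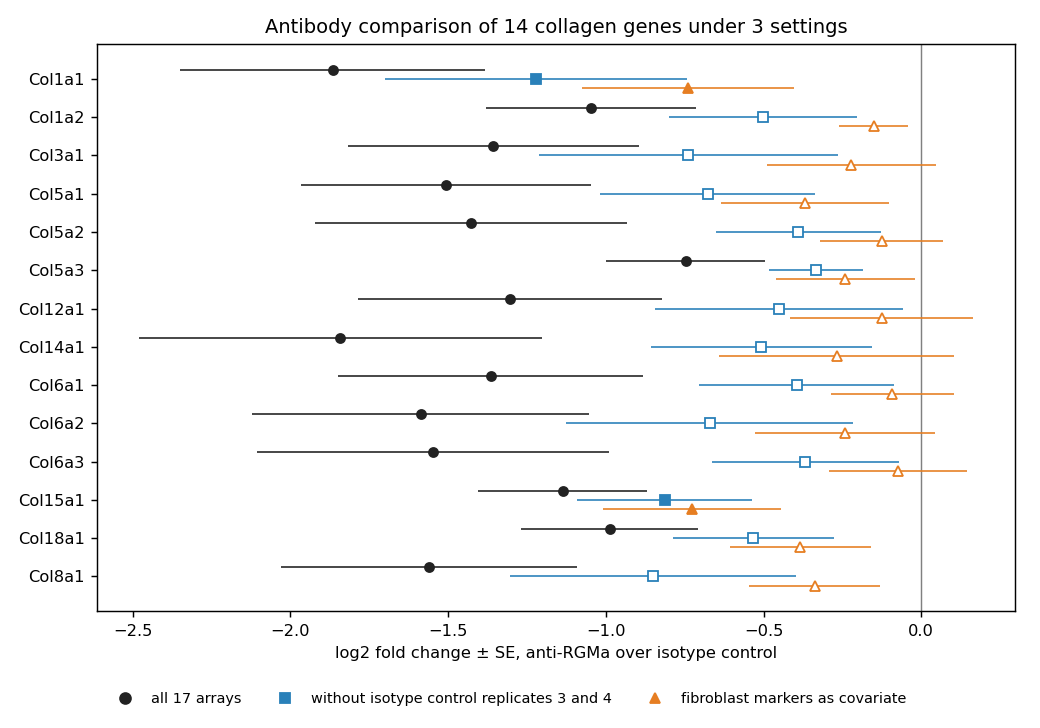
Log2 fold change with its standard error, anti-RGMa over isotype control (horizontal axis), of the 14 called collagen genes that were not dim, with all 17 arrays, without isotype control replicates 3 and 4, and with the fibroblast marker mean as a covariate. Filled symbols passed the antibody threshold. Only Col1a1 and Col15a1 are filled in all 3 settings, and every value lies below 0.

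Other probe sets of the same genes were read as a check on the choice of probe set. Of the 14 called members that were not dim, 11 had several probe sets, with 17 besides the one used. Of these 17, 12 were not dim, and 11 of the 12 were also lower by the antibody threshold. The exception was a probe set of Col12a1 with a log2 difference of -0.98. The 5 dim ones included 1 called lower, for Col8a1, and 2 of Col12a1 with log2 differences of 1.74 and 1.53, neither called.

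The promoters of 3 genes on 3 chromosomes are shown as examples. With all arrays these genes rose in both EAE groups over naïve cord and were called lower between the antibodies. Col1a1, Col5a1, Col12a1 and Col15a1 did so too and are not shown. The 3 shown lost the antibody call without isotype control replicates 3 and 4. Each line holds the 150 bases before the annotated start, 5′ to 3′ on the gene's strand, from RefSeq on GRCm38.p6. Capitals mark a CCAAT box, searched as the letters CCAAT, a GC box, searched as the letters GGGCGG, and a TATA box, searched as the letters TATAAA. Both strands were searched, so a reverse complement is also in capitals, and none of the 3 motifs holds another. Col1a2 is at chr6:4505468-4505617 (plus strand), Col3a1 at chr1:45311388-45311537 (plus) and Col8a1 at chr16:57754738-57754887 (minus).
Col1a2: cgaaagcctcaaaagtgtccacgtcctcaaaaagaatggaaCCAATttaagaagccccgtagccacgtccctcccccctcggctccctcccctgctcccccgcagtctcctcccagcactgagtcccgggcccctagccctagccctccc
Col3a1: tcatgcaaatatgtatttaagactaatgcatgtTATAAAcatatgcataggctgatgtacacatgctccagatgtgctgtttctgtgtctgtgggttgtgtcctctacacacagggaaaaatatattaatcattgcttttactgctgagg
Col8a1: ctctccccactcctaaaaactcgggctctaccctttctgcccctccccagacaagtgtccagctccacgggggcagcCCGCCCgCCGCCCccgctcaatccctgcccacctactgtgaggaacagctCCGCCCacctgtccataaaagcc
In these windows Col1a2 held 1 CCAAT box, Col3a1 1 TATA box and Col8a1 3 GC boxes. Over the longer window of 250 bases before to 50 after the start, 28 of the 36 members had 31 promoter entries. GC boxes were in 58.1% of the 31, CCAAT boxes in 32.3% and TATA boxes in 16.1%. In all 32851 entries of mouse genes the shares were 35.7% for GC boxes, 37.4% for CCAAT boxes and 13.6% for TATA boxes. Of the 13 entries of called members 61.5% held a GC box, against 55.6% of the 18 entries of members not called. A match is a match of letters only.

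Genes that process collagen were measured beside their substrates. Of 18 genes for modification and folding of collagen chains, 3 were lower between the antibody groups and 12 rose in isotype control over naïve, where 2.72% of all genes were lower and 24.6% rose. Serpinh1, the chaperone of collagen in the endoplasmic reticulum, had 9.84 to 11.09 (median 10.84) under anti-RGMa, 11.56, 11.50, 12.36, 13.01 and 10.99 under isotype control and 9.01 to 9.99 (median 9.41) in naïve cord. Its difference was -1.19 (adjusted p = 0.209), and it was the 1 of these 18 still called without isotype control replicates 3 and 4, at -0.66 (adjusted p = 0.249). It lost the call at -0.49 when anti-RGMa replicate 2 was left out as well, and at -0.36 with the fibroblast covariate. Plod2, a lysyl hydroxylase, and Crtap, part of the prolyl 3-hydroxylation complex, were called at -0.91 and -0.74 with all arrays. P4ha1, a subunit of the prolyl 4-hydroxylase that stabilises the helix, rose over naïve by 1.09 under isotype control and had an antibody difference of -0.03 (adjusted p = 0.926). P3h2, another prolyl 3-hydroxylase, rose by 1.29 and differed by -0.39 (adjusted p = 0.209) between antibodies, short of the fold of 1.5.

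Of 7 genes of procollagen cleavage, 2 rose and 2 fell under isotype control over naïve, shares near the 24.6% and 27.2% of all genes, and 1 was lower between the antibody groups. That one was Pcolce, the enhancer of procollagen C-proteinase, with 8.45 to 10.82 under anti-RGMa, 11.16, 11.18, 12.13, 12.75 and 10.32 under isotype control and 8.84 to 10.25 in naïve cord, a difference of -1.44 (adjusted p = 0.223). Of 4 cross-linking genes, 3 rose under isotype control and 2 were lower between the antibodies, where 2.72% of all genes were lower. These were Lox and Loxl1, lysyl oxidases that join collagen and elastin molecules, with -1.30 (adjusted p = 0.227) and -1.20 (adjusted p = 0.223). Without isotype control replicates 3 and 4 neither Pcolce nor these 2 were called.

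Of 10 collagen receptors 6 rose under isotype control and 2 were lower between the antibodies, where 24.6% of all genes rose and 2.72% were lower. Mrc2, which takes up collagen for degradation, differed by -1.26 (adjusted p = 0.214) and Ddr2, a receptor kinase of fibroblasts, by -0.62 (adjusted p = 0.309), and neither was called without isotype control replicates 3 and 4. Ddr1, the related kinase of epithelial and oligodendroglial cells, had 12.59 to 13.16 under anti-RGMa, 12.76 to 13.14 under isotype control and 11.89 to 12.07 in naïve cord, a rise of 0.97 and an antibody difference of -0.18.

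Of 8 genes of collagen breakdown, 6 rose under isotype control and 5 were lower between the antibodies, where 24.6% of all genes rose and 2.72% were lower. Mmp14, a membrane-bound collagenase, had 10.13 to 11.91 (median 10.71) under anti-RGMa, 11.63, 11.46, 11.69, 12.26 and 11.81 under isotype control and 8.56 to 9.43 (median 8.71) in naïve cord. Isotype control replicate 3 did not stand apart for it, and the difference of -0.96 (adjusted p = 0.209) was still called without replicates 3 and 4, at -0.83 (adjusted p = 0.221), and with the fibroblast covariate, at -0.68 (adjusted p = 0.578). Mmp2 (-1.28), Mmp13 (-1.99), Fap (-1.38) and Ctsk (-0.78) were called with all arrays and not without these 2. Fap is also 1 of the 12 fibroblast markers, of which 7 were lower between the antibodies with all arrays and 0 without replicates 3 and 4. Over the 5 lists, 13 of 47 genes were lower and 0 higher between the antibodies, where 2.72% and 1.22% of all genes were.

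**Figure D5:**
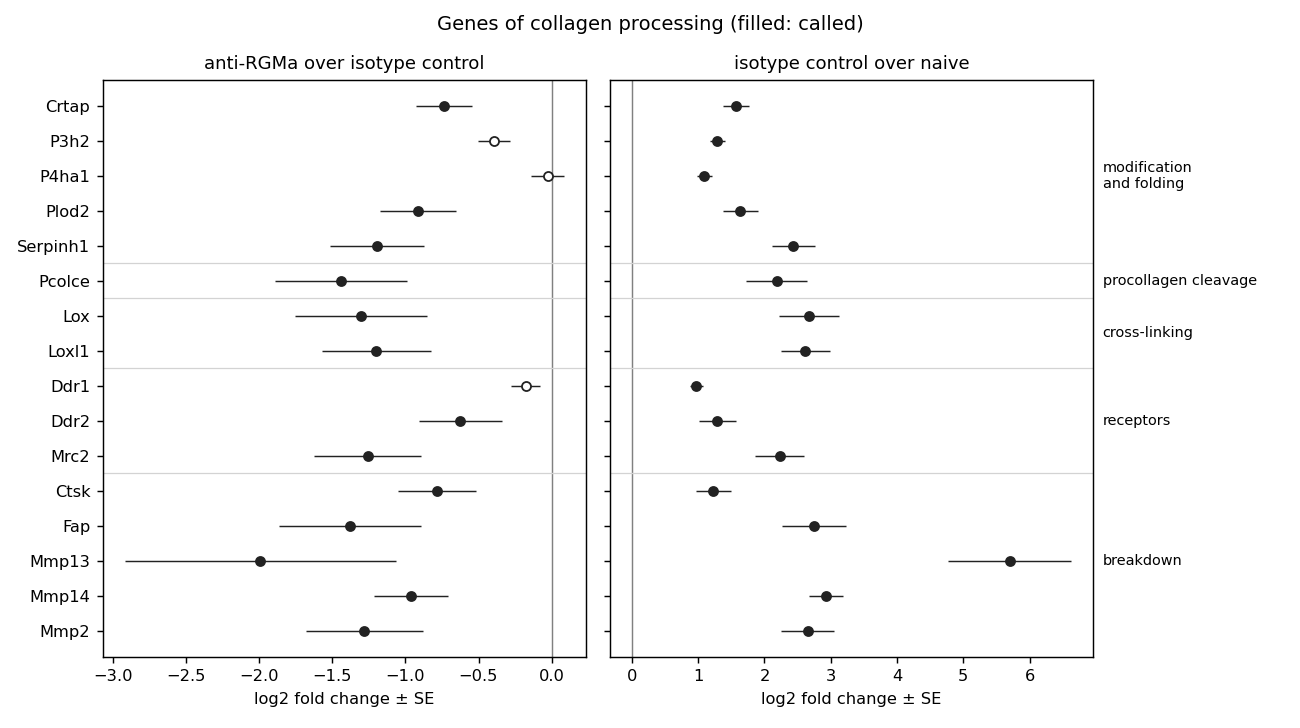
Log2 fold change with its standard error (horizontal axes) of 16 genes of collagen processing (rows), for anti-RGMa over isotype control and isotype control over naïve. Filled symbols passed the call of that comparison: all 16 rose over naïve, and 13 were lower between the antibody groups, all but P3h2, P4ha1 and Ddr1.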

How the data were processed

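Whole-transcriptome expression was measured on Affymetrix mouse arrays, 1 per mouse, in thoracic cord of 6 anti-RGMa, 5 isotype control and 6 naïve mice, grouped by the sample titles. The values were deposited by the authors as linear signal intensity per probe set, made with the MAS 5.0 algorithm (affy is named in the submitters' processing notes) and scaled globally: all 17 arrays had 1 and the same mean signal once 2% of the values at either end was trimmed. The number of arrays limits the precision, and 0 pairs of arrays held identical values. No genome build of the probe annotation is given in the sources used here.

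Of 45101 probe sets, 34958 had 1 gene symbol, 932 several and 9211 none in the platform table. By gene ID 34754 were found in RefSeq (GRCm38.p6), with 0 differing symbols. Each of 18194 genes was represented by its brightest probe set. The log2 of each signal, without an offset or a filter, was fitted with limma 3.58.1 (R 4.3.3) in 1 model over the 3 groups, with Benjamini-Hochberg adjustment over all genes and no replicate block. All p-values in the text are from limma. The script was tested on simulated data. Comparisons with naïve cord were called at an adjusted p under 0.05. The antibody comparison was called by the threshold of the study's legend, which is not adjusted. Members and lists were chosen with earlier results of these data known.

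Signals per array are given for Col1a1, Col1a2 and Col3a1, for members that were not dim and changed over naïve by at least 1 on the log2 scale past the adjusted threshold, and for those past the antibody threshold. Values of Col6a4 and Col19a1 were added after they were seen. Of the processing lists, genes past the antibody threshold and the 4 with the smallest p in isotype control over naïve and in the antibody comparison were named. The alternatives were quantile normalization, median centring, an offset of 16, a filter at a mean log2 signal of 7, the mean of probe sets, the second brightest probe set, trend and robust eBayes, array weights, only the groups compared, the replicate block, muscle or cartilage covariates and each array left out. Leaving out arrays together and the fibroblast covariate were chosen after seeing the data. Plots were made in Python 3.11.15 (matplotlib 3.10.9).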

Additional observations from a re-analysis of the deposited data

Results flagged for a closer look

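In 9 of 108 gene-by-group sets of signals, 1 array lay apart from the others of its group by Dixon's criterion, which chance meets in about 1 of 20 sets. In the anti-RGMa group replicate 2 was the low array for 4 collagens that were called between the antibodies. Its log2 signal was 8.61 for Col6a1, where the other 5 had 9.75 to 10.35, and 11.50 for Col1a2, where they had 12.39 to 12.77. It was 10.58 for Col3a1, against 12.07 to 12.78, and 8.84 for Col5a2, against 9.69 to 10.17. The same array had the lowest fibroblast and meningeal marker means of its group, 8.25 and 6.80. For Col15a1 the low array was anti-RGMa replicate 1, at 6.47 where the others had 7.29 to 7.64.

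Among the isotype control arrays replicate 1 was low for the dim Col22a1 (5.84, others 6.71 to 6.87) and replicate 5 for the dim Col9a2 (3.97, others 5.35 to 5.59). Naïve replicate 6 was high for Col16a1 (9.64, others 9.04 to 9.25) and for the dim Col10a1 (5.39, others at most 2.65). Isotype control replicates 3 and 4, without which together most antibody calls were lost, met this criterion for no collagen. The criterion looks for a single array apart from its group, by its gap to the nearest array. In the 14 called collagens that were not dim, replicates 4 and 3 were the highest and second highest of their group. Each can therefore hide the other, and the criterion cannot show whether they stood apart together.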

How the results depend on the processing

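With isotype control replicates 3 and 4 left out, 5 collagens were called between the antibody groups (4 lower) in place of 15. Leaving out replicates 3, 4 and 5 also gave 5 (4 lower), leaving out replicates 3 and 4 and anti-RGMa replicate 2 gave 5 (3 lower), and the fibroblast covariate gave 4 (2 lower). The same covariate gave 15 calls (12 higher) in isotype control over naïve in place of 25. Leaving out each array in turn gave 22 to 25 calls in isotype control over naïve, 11 to 18 in anti-RGMa over naïve and 14 to 16 between the antibodies. Every other alternative kept these 3 counts within 1.5 times. The alternatives that use other probe sets left the signal of Col15a1, with 1 probe set, unchanged. Col1a1 and Col15a1 kept the antibody call in all alternatives. Without isotype control replicate 4, Col12a1 and Col5a3 lost it, and Col12a1 also without replicate 3.

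Among 17 collagens that were not dim and were followed through every alternative, signs turned in 3 cases. Col12a1 between the antibodies was 0.25 as the mean of its probe sets, and with the second brightest probe set Col5a3 in isotype control over naïve was -0.80 and Col25a1 in anti-RGMa over naïve 0.069. The second probe set also turned the dim Col6a4, to 0.29 between the antibodies and -0.98 in isotype control over naïve. With the replicate block 24, 15 and 16 collagens were called in isotype control over naïve, anti-RGMa over naïve and anti-RGMa over isotype control. Nothing in the labels pairs the mice by number. Same-numbered arrays deviated together with a correlation over 0.1 in 0 of 16 pairs, which cannot show how the mice were handled. Median centring moved the median of all genes in isotype control over naïve to -0.18, where it was -0.04 in the deposited scaling, and in anti-RGMa over naïve to -0.13, where it was -0.03.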
